A study of Mus musculus with 21 samples.

Results

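Deletional Sα joins are junctions in which the 5′ end of the switch region Sμ was joined to the switch region Sα in the orientation that removes the DNA between them. They were chosen from the deposited junctions by position and strand alone: the prey, which is the sequence found joined to the fixed bait end, lay on the minus strand within a 16500-base stretch of chromosome 12 (mm9 build) over Sα, called the Sα unit here. The joins of NCdel, the group with the most, lay between 114494153 and 114503319. Of 40530 junctions in 21 libraries, 7889 met this rule, and 862 junctions of the same unit lay in the inverted orientation. The rule used no join structure, so position within the unit, microhomology, inserted bases and bait end were free to vary.

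Class switch recombination replaces the constant region of the antibody heavy chain. Activation-induced deaminase turns cytosines into uracils in transcribed switch regions, preferentially at AGCT motifs, and the resulting breaks in a donor and an acceptor switch region are joined by end-joining factors, directly, over short stretches of microhomology, or with inserted bases. Germline transcription from the I promoter ahead of a switch region is what opens that region to the deaminase, and for Sα this promoter is Iα.

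The study read these junctions by CSR-HTGTS-Seq, a high-throughput junction sequencing assay, in the mouse B lymphoma line CH12F3, whose cells switch to IgA. Cells were stimulated for 72 h with anti-CD40, IL4 and TGF-β in every group. All groups carry a deletion between Sμ and Sα on the non-coding IgH allele, so the coding allele is the one that can switch. NCdel is this starting line (n = 6 libraries), Iadel also lacks Iα (n = 6), and i3CBEc has an insertion of 3 CBEs (sites bound by CTCF) that face the 3′CBEs in convergent orientation (n = 3). Iadel-i3CBEc carries the 3 CBEs downstream of Cγ2a in cells that lack Iα (n = 3), and in i3CBEc-3CBEdel the 3′CBEs, CTCF sites beyond the constant genes, were deleted from cells with the insertion (n = 3). The labels do not say whether libraries of a group came from separate cultures or clones, so p-values measure the spread between these libraries, which may be technical.

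A library held 1180 to 3513 junctions. Of the deletional Sα joins, 4823 came from NCdel, 1218 from i3CBEc, 1819 from i3CBEc-3CBEdel, 15 from Iadel and 14 from Iadel-i3CBEc. Reads of Iadel library 4 that were also in libraries 5 and 6 of that group (3075 of 4614) were dropped, and 3 of them were deletional Sα joins. Library 2 of i3CBEc-3CBEdel aligned a median of 71 Sα bases per join, against 117 to 135 in NCdel and 90 to 105 in i3CBEc libraries. By the read names, no sequencing run held libraries of both NCdel and an insertion group with Iα, so the run and the genotype of these groups cannot be told apart.

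Libraries of 1 label did not all carry the same Sα sequence. The 4117 positions compared were covered by at least 20 NCdel reads, with 1 base in at least 90% of them. At 11 positions some library with at least 5 reads held another base in at least 70% of its reads. No NCdel library and neither of i3CBEc libraries 1 and 2 reached that share at any of the 11. For NCdel the 90% rule largely fixed this in advance. Substitutions are written on the strand read towards Cα, with the NCdel base first, then the mm9 position on chromosome 12, then the other base. Library 3 of i3CBEc and libraries 2 and 3 of i3CBEc-3CBEdel shared C114500237T, C114500257T, C114500327T, G114500738A and G114500923A. At C114500237T, for example, the substituted base was in 29 of 29, 24 of 24 and 58 of 59 reads of these libraries, and in 3 of 427 NCdel reads. G114499570T was found in libraries 2 and 3 of i3CBEc-3CBEdel. It was also in 4 of 4 reads of i3CBEc library 3, below the 5 reads needed. G114501531A was in 8 of 9 reads of i3CBEc library 3 and 13 of 14 of i3CBEc-3CBEdel library 2. In i3CBEc-3CBEdel library 3 it was in 17 of 28 reads, below the 70% needed. Library 1 of i3CBEc-3CBEdel carried a different set, C114500717T, C114500807T, C114500922G and G114502453A. Of the 11 substitutions, 9 were C to T or G to A and 5 fell on the inner C or G of an AGCT. The share of such bases among the positions compared was not counted, so these counts have no reference to be read against. These positions were picked by their values, and their part in the comparisons of groups was not tested.

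The sequence windows around the 5 shared substitutions are shown because they tell the libraries apart. They are the NCdel bases on the minus strand, with the base that changed in capitals.
C114500237T, chr12:114500227-114500247: ctaggctacaCtgcactgtct
C114500257T, chr12:114500247-114500267: ctgagcagagCtggacaaagc
C114500327T, chr12:114500317-114500337: gctgggctggCtggtgtgagc
G114500738A, chr12:114500728-114500748: gttgggctgcGctggtgtgag
G114500923A, chr12:114500913-114500933: gatgagctgaGctaggctaga

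The bait, chr12:114664781-114664909 of mm9 on the minus strand, and the pair of 100-base bins with the most joins are shown next, read from the junction reads, because joins are described against them. AGCT motifs are in capitals.
bait: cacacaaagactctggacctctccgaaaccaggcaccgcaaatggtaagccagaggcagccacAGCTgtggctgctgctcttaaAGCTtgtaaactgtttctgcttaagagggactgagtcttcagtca
chr12:114500200-114500299: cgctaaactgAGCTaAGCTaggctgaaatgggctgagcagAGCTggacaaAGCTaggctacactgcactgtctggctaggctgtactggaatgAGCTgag
chr12:114500300-114500399: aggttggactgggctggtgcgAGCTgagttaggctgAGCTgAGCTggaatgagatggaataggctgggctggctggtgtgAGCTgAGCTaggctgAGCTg
The bait holds AGCT at bases 64 to 67 and 85 to 88, counted from its primer side.

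Cells without Iα had almost no deletional Sα joins. In NCdel the libraries gave 40.7%, 38.2%, 40.2%, 32.9%, 50.4% and 50.2% of their junctions as deletional Sα joins, 42.1% ± 6.94 (SD, n = 6). In Iadel the shares were 0.0582%, 0.0285%, 0.292%, 0%, 0.114% and 0.0760%, a mean of 0.0947% ± 0.104 (SD, n = 6). Each NCdel library lay above every Iadel library, and the means differed 444-fold (exact permutation test, two-sided, p = 0.00216, adjusted p = 0.0130 over 6 comparisons, the smallest p that 6 against 6 libraries allow). The 0 of library 4 is 0 of 1539 junctions, which allows a share of up to 0.195%. Such limits and the 95% Wilson intervals of single libraries cover counting error only. Library 3 of Iadel held 9 of the 15 joins, and without it the group mean was 0.0553% ± 0.0436 (SD, n = 5), which is 762-fold below NCdel. Within the only run that held both groups, 3 libraries against 3, the difference was -39.6 percentage points, with an exact permutation p of 0.1 that is the smallest such a comparison allows.

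With the CBE insertion the deletional Sα share was 32.1%, 32.1% and 31.3% in i3CBEc, 31.8% ± 0.456 (SD, n = 3), below all 6 NCdel libraries. The i3CBEc libraries came from 1 sequencing run, so their SD holds no spread between runs. Among NCdel libraries the share differed by run. It was 32.9% in library 4, 38.2% to 40.7% in libraries 1 to 3, and 50.4% and 50.2% in libraries 5 and 6. The difference of i3CBEc from NCdel, -10.3 percentage points, missed the threshold after adjustment (exact permutation test, two-sided, p = 0.0476, adjusted p = 0.119). As a percent of junctions inside the IgH window, which reaches from 20 kb before the bait to 250 kb beyond it, the difference was -16.3 percentage points, with an adjusted p of 0.0238 by the same exact permutation test. In i3CBEc-3CBEdel the libraries gave 42.6%, 23.0% and 38.7%, 34.8% ± 10.4 (SD, n = 3), and the lowest of them was library 2, whose reads aligned over the fewest bases. Its range overlapped those of NCdel (adjusted p = 0.257, exact permutation test) and i3CBEc (adjusted p = 0.7, exact permutation test). Inside the IgH window the share was 22.2 percentage points lower than in NCdel, with an adjusted p of 0.0238 by the exact permutation test. These comparisons share the NCdel and i3CBEc libraries.

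**Figure D1:**
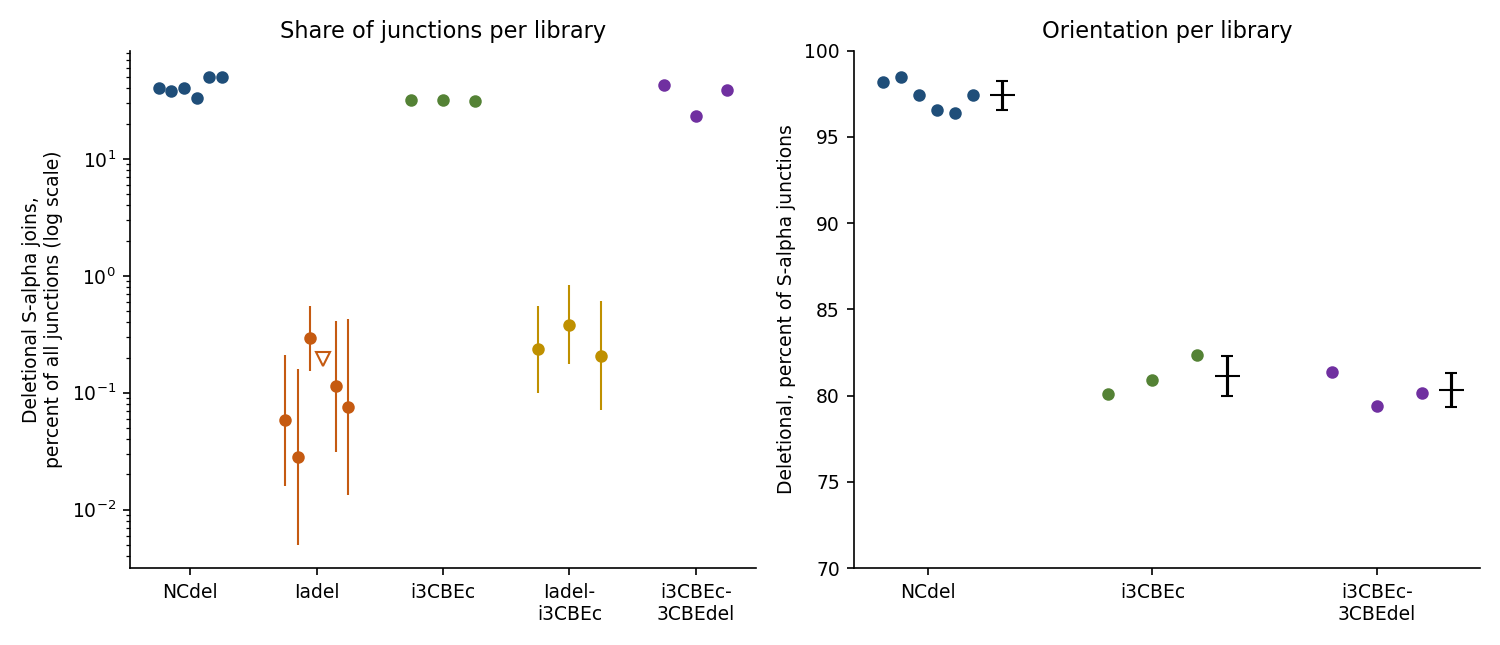
Left, deletional Sα joins as a percent of all junctions of each library on a log scale, by group, with 95% Wilson intervals as bars; the open triangle is the limit that 0 of 1539 junctions allows. Right, deletional joins as a percent of the Sα junctions of each library in the groups with Iα, with the mean and SD beside the points; the 6 NCdel libraries lie between 96.4% and 98.5% and the 6 insertion libraries between 79.4% and 82.4%.

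Among the Sα junctions of a library, the deletional share was lower in both insertion groups. It ran from 96.4% to 98.5% in NCdel, 97.4% ± 0.837 (SD, n = 6). The i3CBEc libraries stood at 80.1%, 80.9% and 82.4%, 81.1% ± 1.16 (SD, n = 3), and the i3CBEc-3CBEdel libraries at 81.4%, 79.4% and 80.2%, 80.3% ± 0.990 (SD, n = 3). Neither insertion group overlapped NCdel. Each difference had an exact permutation p of 0.0119, the smallest that 3 against 6 libraries allow, and an adjusted p of 0.0536 over 9 measures, which misses 0.05. The inverted orientation thus made up 285 of 1503 Sα junctions in i3CBEc and 443 of 2262 in i3CBEc-3CBEdel, against 130 of 4953 in NCdel. The minus-strand share also differed between these groups in the μ unit, the stretch around Sμ, at 88.2% ± 3.08 in NCdel (SD, n = 6), 78.7% ± 1.58 in i3CBEc and 74.2% ± 8.37 in i3CBEc-3CBEdel (SD, n = 3 each). Outside the IgH window it was 49.6% ± 2.40 in NCdel (SD, n = 6), 50.6% ± 2.09 in i3CBEc and 46.0% ± 2.58 in i3CBEc-3CBEdel (SD, n = 3 each). The Iα-deleted group with the same insertion, Iadel-i3CBEc, had 88.6% ± 1.27 of its μ-unit junctions on the minus strand (SD, n = 3), and Iadel had 89.5% ± 2.20 (SD, n = 6). In the rest of the IgH window, apart from the μ and Sα units, the minus-strand share was 83.4% ± 2.98 in Iadel-i3CBEc (SD, n = 3, 80.7% to 86.6%) and 94.7% ± 1.55 in Iadel (SD, n = 6, 92.3% to 96.3%), without overlap. There it was 89.2% ± 3.15 in NCdel (SD, n = 6), 82.2% ± 1.59 in i3CBEc and 78.5% ± 6.75 in i3CBEc-3CBEdel (SD, n = 3 each). These differences outside Sα were not tested, nor was their bearing on orientation in Sα.

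Deletional joins concentrated in a short stretch of Sα. In NCdel 99.2% ± 0.339 of them lay within a 7000-base block of the unit dense in AGCT. The block holds 140 of the 146 AGCT motifs found in the 7989 bases of the unit that the reads cover. Of these covered bases 6391 lie in the block, and motifs in uncovered parts of the unit are not known. The 4 bins of 500 bases with most joins adjoin each other, and this core, chr12:114500000-114501999, alone took 77.1% ± 1.59 (SD, n = 6). The 7860 joins of the 12 libraries with Iα used 2877 distinct positions, and 1253 positions were used by 1 join only. The 5 densest 100-base bins, which start at 114500200, 114500300, 114500900, 114500000 and 114500100, held 585, 515, 430, 425 and 400 joins, together 29.96% of all. Over the 16 bins of 500 bases with at least 250 covered bases, AGCT density and the share of joins ranked together (Spearman 0.917, a description over bins that share the same libraries). The ranking was not exact: the bin that starts at 114500500 had the most motifs, 5.2 per 100 bases, while the bin that starts at 114500000 had the most joins, 25.2% in NCdel.

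**Figure D2:**
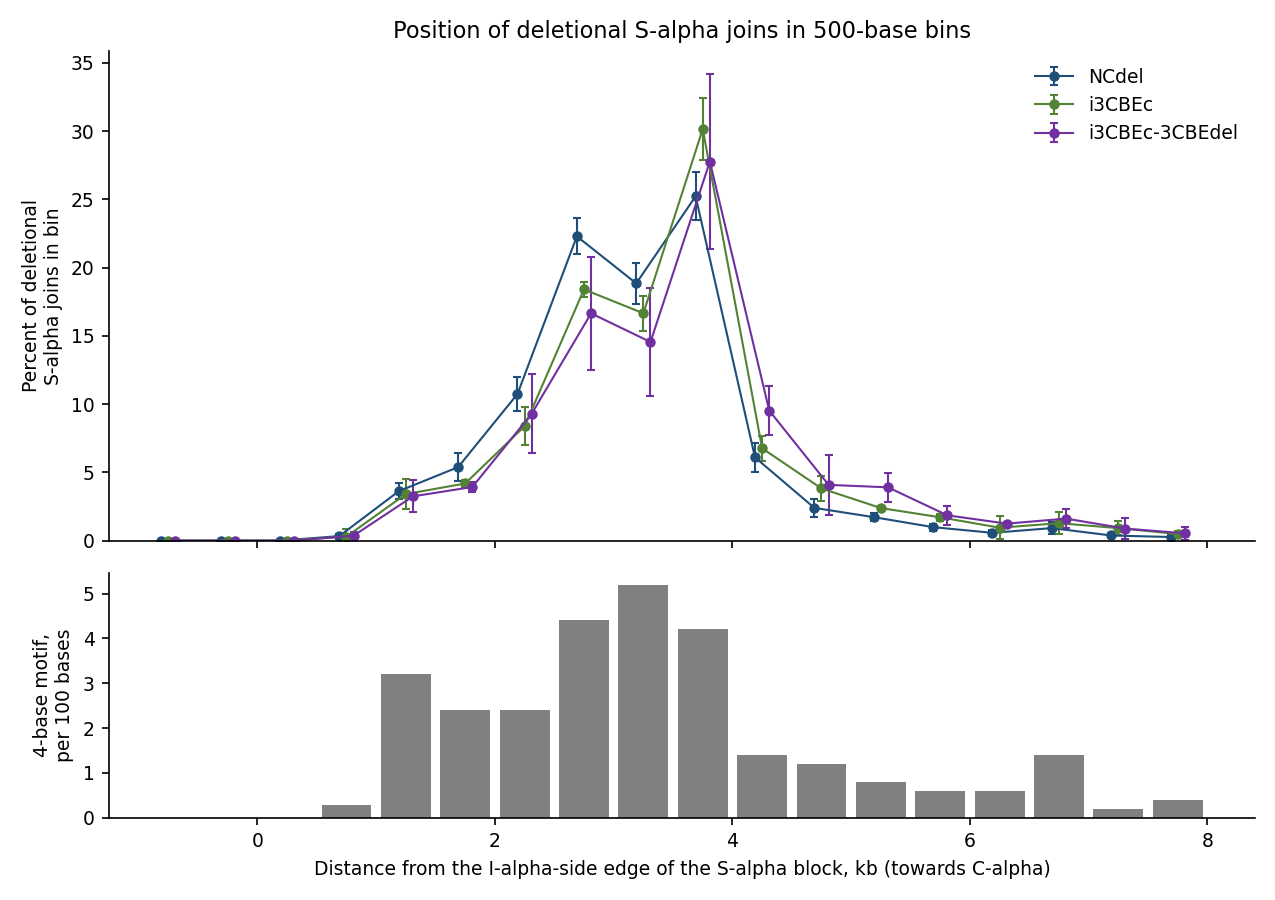
Percent of each library's deletional Sα joins in 500-base bins (mean with SD as bars; NCdel n = 6, i3CBEc and i3CBEc-3CBEdel n = 3) above the density of the 4-base motif AGCT in the same bins, against distance from the Iα-side edge of the Sα block in kb. The joins peak where the motif is dense, and both insertion groups lie at or above NCdel beyond the peak, on the side of Cα.

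The median positions of the insertion groups were nearer Cα on average, but neither difference from NCdel passed the threshold after adjustment. The median position of a library's joins was between 114500778 and 114500944 in NCdel, and 114500628, 114500623 and 114500595 in i3CBEc, on average 247 bases closer to Cα. All i3CBEc medians lay beyond all NCdel medians (exact permutation test, p = 0.0119, adjusted p = 0.0536). In i3CBEc-3CBEdel libraries 1 and 3 had medians of 114500267 and 114500389, while library 2, at 114500849, lay inside the NCdel range (exact permutation test, p = 0.0238, adjusted p = 0.0536). The share on the Cα side of the core is given as a description: 13.5% ± 1.14 in NCdel (SD, n = 6), 18.5% ± 2.97 in i3CBEc (SD, n = 3) and 24.2% ± 7.05 in i3CBEc-3CBEdel (SD, n = 3). On the Iα side of the core it was 9.34% ± 1.09 in NCdel (SD, n = 6), 7.90% ± 0.875 in i3CBEc and 7.54% ± 1.75 in i3CBEc-3CBEdel (SD, n = 3 each).

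Tested bin by bin with limma on log2(percent + 0.5), 3 of 16 bins were higher in i3CBEc-3CBEdel than in NCdel (18.8% of the bins tested) and 0 were lower, with 7 at an unadjusted p under 0.05. All 3 lie on the Cα side of the core. In chr12:114498500-114498999, i3CBEc-3CBEdel libraries had 3.55%, 3.08% and 5.09% of their deletional Sα joins, and NCdel libraries had 1.36% to 2.09% with a median of 1.67%. The groups did not overlap, and the log2 difference was 0.97 (SE 0.169, limma adjusted p = 0.000891). In chr12:114499500-114499999 the values were 10.5%, 7.47% and 10.6% against 4.79% to 7.63% with a median of 6.18%, so library 2 fell within the NCdel range (log2 difference 0.60, SE 0.182, limma adjusted p = 0.0340). In chr12:114498000-114498499 the values were 1.62%, 1.32% and 2.62% against 0.660% to 1.41%, again with an overlap at library 2 (log2 difference 0.64, SE 0.20, limma adjusted p = 0.0340). Without library 2 of i3CBEc-3CBEdel, 8 bins were higher and 4 lower. Without library 1 or library 3 of that group, or without NCdel library 2, 3, 4 or 5, 1 bin was higher. The bin that starts at 114498500 passed with each of the 12 libraries left out in turn. Between i3CBEc and NCdel limma called 0 of 16 bins (0%), with 2 at an unadjusted p under 0.05, and between i3CBEc-3CBEdel and i3CBEc it also called 0 of 16 (0%), with 2 at an unadjusted p under 0.05.

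Single positions recurred little. The 5 most used positions, at most 24 joins each, took 1.37% of the 7860 joins, and 75 positions with at least 10 joins took 12.4%. They are shown with 20 bases on either side of the junction, minus strand, because 4 of the 5 have an AGCT base within 5 bases of the junction. The part kept in the join is in capitals.
114500066, chr12:114500047-114500086: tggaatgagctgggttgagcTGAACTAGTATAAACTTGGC
114501096, chr12:114501077-114501116: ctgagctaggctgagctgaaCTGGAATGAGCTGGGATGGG
114501235, chr12:114501216-114501255: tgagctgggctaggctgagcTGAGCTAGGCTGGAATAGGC
114500178, chr12:114500159-114500198: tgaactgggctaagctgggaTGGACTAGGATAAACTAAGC
114500457, chr12:114500438-114500477: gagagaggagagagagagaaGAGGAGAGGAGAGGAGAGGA
The 24 joins at 114500066 came from 11 libraries and 16 bait ends, and the 21 at 114501235 from 10 libraries and 18 bait ends. Both start at the T of an AGCT. The position 114500457 lies in a purine repeat with no AGCT within 5 bases, and 17 of its 20 joins had inserted bases.

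Joins lay at AGCT more often than the local sequence gives. In the 12 libraries with Iα, 55.9% ± 3.52 of deletional Sα joins had an AGCT base within 5 bases of the junction, against 39.3% ± 1.64 of the positions of the same 500-base bins (SD, n = 12). The excess of 16.6 percentage points was seen in 12 of 12 libraries (exact sign-flip permutation test, p = 0.000488, the smallest that 12 libraries allow). It was 15.6 percentage points in direct joins alone and 24.2 in joins with inserted bases, also in 12 of 12 libraries each. The share at AGCT was 57.3% ± 1.92 in NCdel (n = 6), 56.5% ± 4.38 in i3CBEc (n = 3) and 52.6% ± 4.20 in i3CBEc-3CBEdel (n = 3), and neither insertion group passed the exact permutation test against NCdel (adjusted p = 0.893 and 0.107).

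Within the motif, the first Sα base of direct joins and of joins with inserted bases was most often the T. Of 1716 direct joins, 281 (16.4%) began at the T of an AGCT, that is, 3 bases after its A, where the bins give 3.58%. Of 1744 joins with inserted bases, 451 (25.9%) began there. The larger class, 4380 joins with microhomology, went otherwise: 126 (2.88%) began at the T, 340 (7.76%) at the A and 331 (7.56%) at the G. The neighbouring bases were used near the local share in direct joins: 57 (3.32%) began at the C and 71 (4.14%) at the base after the T. Smaller peaks recurred every 5 bases on both sides, in step with the 5-base repeats of Sα. More generally, a C on the removed side followed by a T on the kept side was found in 19.6% ± 1.64 of all joins against 11.7% ± 0.188 of positions (SD, n = 12), higher in 12 of 12 libraries. It was found in 26.99% ± 3.69 of direct joins and 40.99% ± 4.18 of joins with inserted bases, but in 8.09% ± 1.60 of joins with microhomology, which was above the local share in 1 of 12 libraries. The class of a join depends on the bases beside it, since a shared base turns a direct join into a microhomology join, so the classes are not independent of these bases. This pattern was picked out after its values were seen and has no test of its own.

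**Figure D3:**
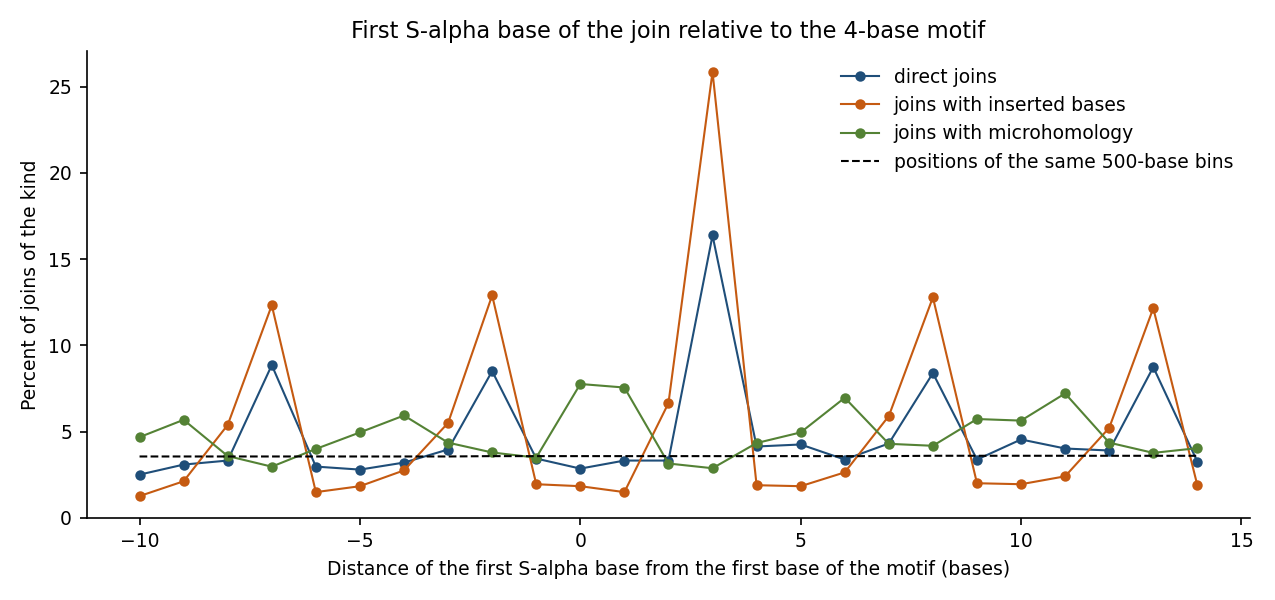
Percent of direct joins, joins with inserted bases and joins with microhomology (12 libraries with Iα pooled) whose first Sα base lies a given number of bases from the A of an AGCT; the dashed line is the share of positions of the same 500-base bins. Direct joins reach 16.4% and joins with inserted bases 25.9% at 3 bases, which is the T, with lower peaks every 5 bases. Joins with microhomology stand at 2.88% there and are highest at the A, with 7.76%.

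By structure, 21.9% of the 7860 joins were direct, 55.9% had microhomology and 22.3% had inserted bases. The median microhomology was 2 bases and the longest 10. Among 1663 joins with at least 3 bases of microhomology, the most frequent shared sequences were GCTG in 224 joins, GCT in 190 and AGC in 132, which are words of both the Sα repeat and the bait. Of the 1749 joins with inserted bases, 784 (44.8%) had 1 base and 164 (9.38%) more than 10.

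Deletional Sα joins differed in structure from junctions outside the IgH window of the same 12 libraries. Inserted bases were found in 22.4% ± 1.84 of deletional Sα joins and 12.1% ± 6.16 of junctions outside (SD, n = 12, higher in 11 of 12 libraries, exact sign-flip permutation test, adjusted p = 0.00439 over 15 tests). Single inserted bases stood at 8.78% to 12.3% per library in Sα and 0.493% to 5.77% outside, without overlap. Insertions of 2 to 5 bases stood at 9.07% ± 1.59 in Sα and 2.43% ± 1.78 outside (SD, n = 12). Longer insertions ran the other way as a description: 6 to 10 bases at 1.12% ± 0.246 in Sα and 1.69% ± 1.12 outside, and 11 or more bases at 2.11% ± 0.731 and 6.54% ± 2.29 (SD, n = 12). Microhomology of at least 4 bases was found in 10.9% ± 1.12 against 20.1% ± 3.74 (lower in 12 of 12 libraries, adjusted p = 0.00183, exact sign-flip permutation test). That gap lies in stretches of 6 or more bases, at 1.195% ± 0.516 in Sα and 11.7% ± 3.85 outside (SD, n = 12), while 4 bases were found in 6.66% ± 1.01 and 5.46% ± 1.19 (SD, n = 12). Direct joins made up 21.8% ± 2.60 against 27.5% ± 3.36 (adjusted p = 0.0110, exact sign-flip permutation test).

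Against deletional joins within the μ unit, inserted bases were fewer in Sα, 22.4% ± 1.84 against 33.0% ± 3.06 (SD, n = 12, lower in 12 of 12 libraries, adjusted p = 0.00183, exact sign-flip permutation test). Single inserted bases stood close together, at 10.1% ± 1.00 and 10.3% ± 2.46, and insertions of 6 to 10 bases stood at 1.12% ± 0.246 in Sα and 4.83% ± 1.72 in the μ unit (SD, n = 12). Mean microhomology was taken over joins without inserted bases, with direct joins counted as 0 bases. It is therefore not the mean length among joins with microhomology, and it is not separate from the share of direct joins. This mean was lower in Sα, 1.68 ± 0.105 bases against 1.81 ± 0.142 (SD, n = 12, lower in 10 of 12 libraries, adjusted p = 0.0209, exact sign-flip permutation test). Direct joins made up 21.8% ± 2.60 against 19.1% ± 2.76 (SD, n = 12, higher in 9 of 12 libraries, adjusted p = 0.0430, exact sign-flip permutation test), a call that was lost in 9 of 12 fits with a library left out. Microhomology of at least 4 bases was found in 10.9% ± 1.12 and 11.2% ± 1.67 (adjusted p = 0.574, exact sign-flip permutation test). Against inverted Sα joins, in the 10 libraries with at least 20 of both, none of 5 measures passed. The nearest was the share with inserted bases, 22.6% ± 1.71 in deletional and 19.1% ± 5.21 in inverted joins (SD, n = 10, adjusted p = 0.140, exact sign-flip permutation test).

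**Figure D4:**
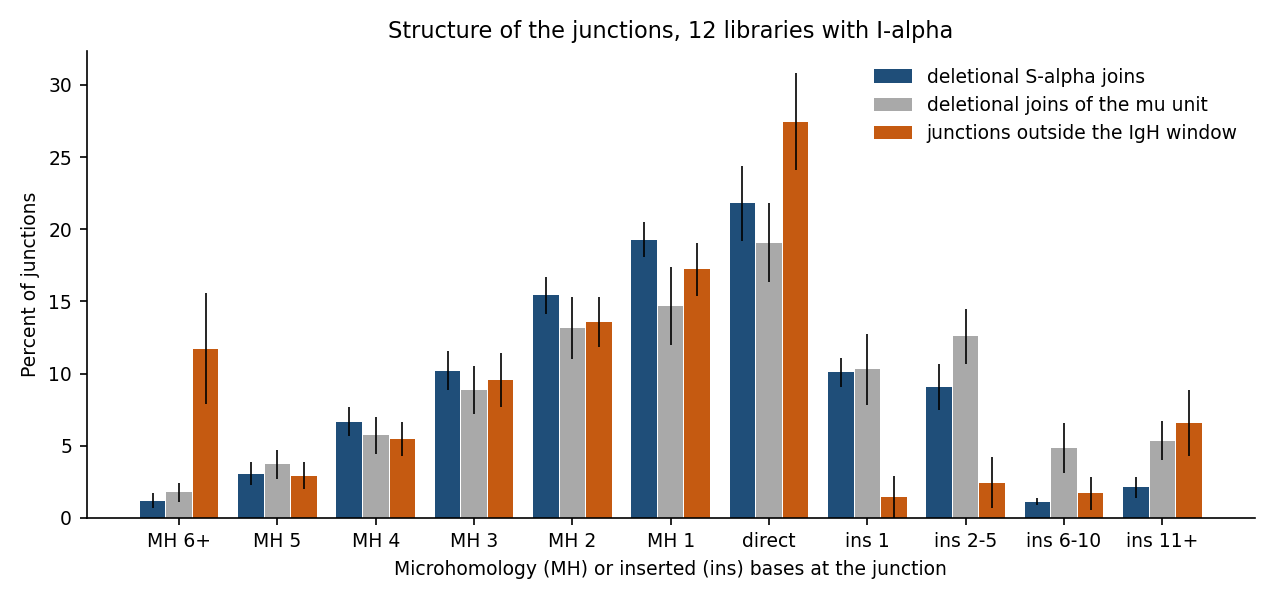
Percent of junctions with a given length of microhomology (MH) or of inserted bases (ins) in deletional Sα joins, deletional joins of the μ unit and junctions outside the IgH window (bars, mean; lines, SD; n = 12 libraries). Single inserted bases reach 10.1% in Sα and 1.43% outside, and microhomology of 6 or more bases 1.195% and 11.7%.

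Structure varied little among genotypes. Direct joins made up 21.5% ± 1.99 in NCdel (n = 6), 21.3% ± 3.90 in i3CBEc (n = 3) and 22.9% ± 3.13 in i3CBEc-3CBEdel (n = 3). The share with inserted bases was 21.6% ± 1.34, 21.8% ± 2.10 and 24.5% ± 0.937, and that with at least 4 bases of microhomology was 11.5% ± 0.634, 10.96% ± 0.671 and 9.68% ± 1.45 in the same order (SD). The inserted and long-microhomology shares of i3CBEc-3CBEdel differed from NCdel with an adjusted p of 0.0536 each by the exact permutation test, which misses the threshold. The long-microhomology shares did not overlap, at 8.01% to 10.5% in i3CBEc-3CBEdel and 10.6% to 12.1% in NCdel. Their unadjusted p of 0.0119 by that test is the smallest that 3 against 6 libraries allow. Among i3CBEc and NCdel the adjusted p of these structure measures was 0.536 to 0.893 by the exact permutation test.

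Single inserted bases were mostly A or T, and beside a reference C or G they mostly read as C to T or G to A. The base that the reference has just before the first Sα base was a C or G in 672 of 782 such joins. In 479 of these 672 (71.3%) the inserted base was T in place of C or A in place of G, with 64.5% to 79.7% per library (n = 12 libraries). In place of C, T was found in 290 joins, A in 93 and G in 40. In place of G, A was found in 189, T in 43 and C in 17. Where the reference had A or T, the matching changes, A to G and T to C, were found in 22 of 110 joins (20%). There the inserted base was more often the other of A and T: T in 20 of 47 joins where the reference had A (42.6%), and A in 33 of 63 where it had T (52.4%). No inserted base equalled a reference C or G on this side, while 3 equalled a reference A and 13 a reference T. Read against the base that follows the bait end, 428 of 668 (64.1%) were C to T or G to A. T was inserted there at 56 of 78 reference A (71.8%), and no inserted base equalled a reference A, C, G or T. An inserted base equal to its neighbour would mostly be aligned instead, so the lack of unchanged bases was largely fixed in advance. With that base excluded, the shares of C to T and G to A run over fewer possible bases. At the 454 reference G on the bait side, A was inserted in 273 joins and T in 156. These shares were not set against the overall share of A and T among inserted bases, so they have no reference to be read against. The same base is compared with both sides, so these shares are not separate counts. Deletional joins of the μ unit gave 142 of 229 (62.0%) on the prey side. Mismatches inside the aligned Sα sequence, at least 10 bases from either end, were C to T or G to A in 1860 of 3262 mismatches at C or G (57.0%), at 5.91 mismatches of any kind per 1000 bases. The comparison was made after the values were seen, and it has no test.

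A join found in 3 libraries shows the pattern, and was chosen because the reference has C on both sides. The bait end is base 65 of the bait, the first Sα base is 114498767, and the base in capitals is the inserted T in the join and the C it stands beside in both references (minus strand).
join: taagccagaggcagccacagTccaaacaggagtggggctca
bait reference, chr12:114664825-114664864: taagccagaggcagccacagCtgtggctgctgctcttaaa
Sα reference, chr12:114498748-114498787: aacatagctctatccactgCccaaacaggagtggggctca
The bait side of this join ends inside the AGCT at bait bases 64 to 67. The join at 114501015 with bait end 55 recurred more, with 4 joins in 4 libraries. Its inserted T stands beside a T in the Sα reference and a G in the bait reference, so it fits on neither side. The join at 114499975 with bait end 85 was found in 3 libraries. Its inserted A stands beside a C in the Sα reference and a G in the bait reference, so it fits on the bait side only.

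The bait ended at other places in deletional Sα joins than in junctions outside the IgH window. The median bait end was base 65.1 ± 1.88 against 56.0 ± 2.73 (SD, n = 12, higher in 12 of 12 libraries, adjusted p = 0.00183, exact sign-flip permutation test). Bases 61 to 80 took 42.3% ± 2.11 of deletional Sα joins and 16.2% ± 6.29 of junctions outside, and the first 40 bases took 5.62% ± 1.29 and 29.5% ± 5.42 (SD, n = 12). The most used bait end in Sα joins was base 64, the A of the first AGCT, with 457 joins (5.81%). Base 77 followed with 327 (4.16%), base 65 with 321 (4.08%), base 57 with 269 and base 76 with 268. Of these, bases 77, 57 and 76 lie in neither AGCT of the bait. Bait ends were not set against a background share of bait bases. Outside the window the most used bait end was base 34, with 802 of 7239 junctions (11.1%). Deletional joins of the μ unit also used base 64 most, in 5.19%, and their median bait end did not differ by the test (65.7 ± 3.23, adjusted p = 0.545, exact sign-flip permutation test). The median bait end was 65.5 ± 0.837 in NCdel (n = 6), 66.0 ± 1.73 in i3CBEc (n = 3) and 63.3 ± 2.89 in i3CBEc-3CBEdel (n = 3), where the lowest value, 60, was that of library 2.

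**Figure D5:**
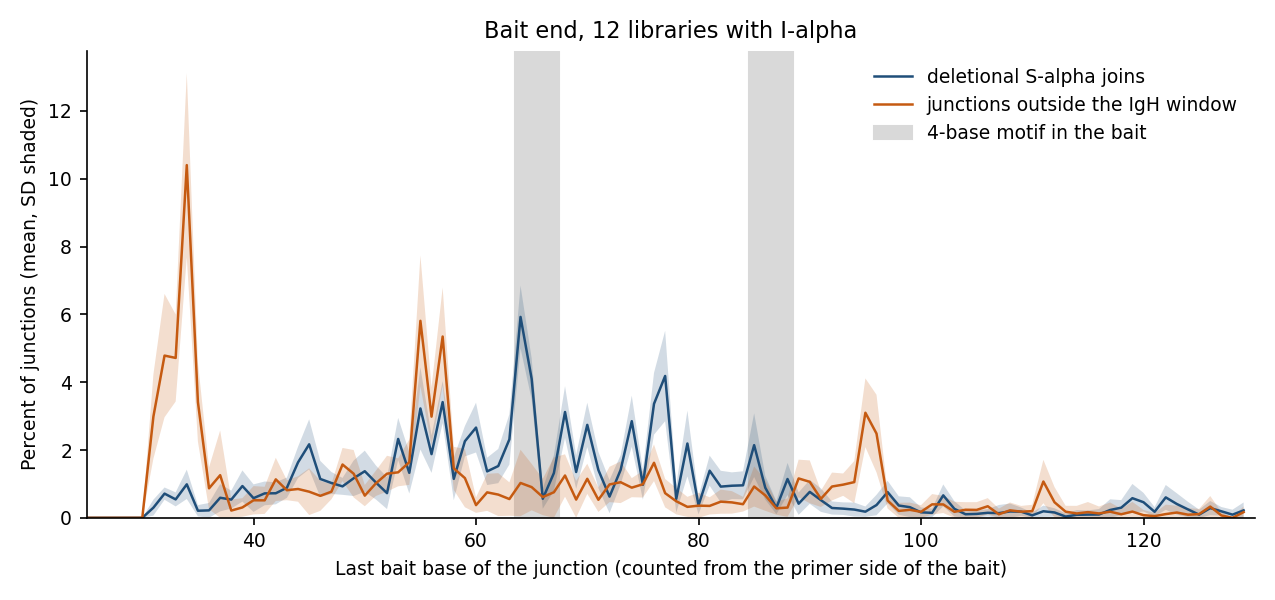
Percent of deletional Sα joins and of junctions outside the IgH window that end at each base of the bait (line, mean; shading, SD; n = 12 libraries with Iα), with the AGCT motifs of the bait as grey bands. Sα joins peak at base 64 in the nearer motif and next at base 77, outside both motifs, and junctions outside the window peak at base 34.

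The few joins left without Iα were of several kinds. Of the 15 in Iadel, 3 had their whole Sα alignment within chr12:114500921-114500947, and so did 10 of the 14 in Iadel-i3CBEc. The counts were 3 of 4823 in NCdel, 1 of 1218 in i3CBEc and 1 of 1819 in i3CBEc-3CBEdel. Their short length follows from this definition, and all of them carried inserted bases. Long reads across the site numbered 244 in NCdel, 43 in i3CBEc, 64 in i3CBEc-3CBEdel, 1 in Iadel and 0 in Iadel-i3CBEc. The site is shown because it decides the comparison of these groups, with AGCT in capitals (minus strand).
chr12:114500921-114500947: ctgAGCTgAGCTgggatgAGCTgAGCT
The sequence is not particular to Sα: it was found in 126 of 7281 μ-unit reads and 221 of 7760 Sα reads. In 3 of the 3 Iadel joins and 9 of the 10 Iadel-i3CBEc joins, the part of the read after the bait shared more 20-base words with μ-unit reads than with Sα reads. The site sequence was found in 0 of 1968 Sα reads of i3CBEc-3CBEdel, whose libraries carry G114500923A or C114500922G within it. Sα reads with short alignments, such as those within the site, are not in these counts. They take in 1968 of the 2262 Sα junctions of i3CBEc-3CBEdel and 3 of the 16 of Iadel-i3CBEc.

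Of the other 12 Iadel joins, 9 came from library 3, and they lay between 114492269 and 114502456 at 12 positions, 9 of them in the AGCT-dense block. Their aligned length ran from 33 to 306 bases. The other 4 Iadel-i3CBEc joins lay at 3 positions between 114492800 and 114500961. Libraries 2 and 3 of that group, which share a sequencing run, each had 1 join at 114494197 with bait end 64 and 1 inserted base.

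The share in Iadel-i3CBEc was 0.235%, 0.381% and 0.207%, 0.274% ± 0.0932 (SD, n = 3), 2.90-fold above Iadel (exact permutation test, p = 0.0595, adjusted p = 0.119). Within the run that held 3 libraries of each, the difference was 0.211 percentage points (exact permutation p = 0.1, the smallest possible). Without Iadel library 3 this ratio was 4.96. With at least 50 aligned Sα bases, which leaves 10 joins in Iadel and 2 in Iadel-i3CBEc, the direction turned: 0.0515% ± 0.0448 in Iadel-i3CBEc (SD, n = 3) and 0.0723% ± 0.108 in Iadel (SD, n = 6). Against i3CBEc, which has Iα, the share was 116-fold lower (exact permutation test, p = 0.1, the smallest that 3 against 3 libraries allow), and 640-fold lower with at least 50 aligned bases. With the shared reads of Iadel library 4 kept, the difference between the Iα-deleted groups was 0.169 percentage points (exact permutation test, p = 0.0357, adjusted p = 0.0357). That adjustment ran over only the 2 comparisons that include Iadel, while the adjusted p of 0.119 ran over 6 comparisons. The 2 adjusted values therefore cannot be set against each other.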

How the data were processed

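Junctions were measured by CSR-HTGTS-Seq on genomic DNA of 21 libraries. The deposited tables hold 1 line per junction with its mm9 positions, CIGAR, read and the gap between bait and prey, which are coordinates and base counts with no normalisation. Bowtie2 and mm9 are named per the submitters' processing notes; alignment and filter settings are not given in the sources used here. In insertion libraries a 99-base shift on the μ side was removed (303 of 303 matched bait words). The MH column is the prey start minus the bait end, minus 1, in 100% of lines: negative is microhomology, positive is inserted bases. No mm9 genome was used: Sα and bait sequence is the majority base of at least 3 reads (99.2% of reads per base).

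Libraries are the replicates, and a library needed 20 joins for structure measures. Shares and per-library summaries were compared by exact permutation tests (Python 3.11.15, numpy 2.4.6), and 500-base bins with at least 10 joins by limma 3.58.1 in R 4.3.3, with Benjamini-Hochberg adjustment at 0.05. The limma step was tested on simulated data for i3CBEc against NCdel: of 80 bins changed 2.5-fold, 98.8% were called. These were multinomial draws with counting noise only and no spread between libraries, so this checks the code and not its power on the real libraries. Named items are the called bins, the 5 positions and 5 100-base bins with most joins, and all joins without Iα; others are said to be picked by value. Members and lists were chosen with earlier results of these data known. Repeats of prey position, strand and bait end (70 joins, 0.887%) were kept. Alternatives on prey identity, kind of join, repeats at AGCT and aligned length were added after seeing the data, except that aligned length was planned for orientation, position and structure within Sα.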

Additional observations from a re-analysis of the deposited data

How the results depend on the processing

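Of 302 alternatives other than leaving out a library, 261 kept direction and side of the threshold, as did 522 of 567 fits with a library left out. Leaving out each library moved the Iadel minus NCdel share between -43.9 and -40.3 percentage points. The replicate numbers share only a number: deviations of same-numbered libraries over bins correlated from -0.511 to 0.450. With the replicate block the Iadel minus NCdel share was -42.0 at an adjusted p of 0.188 by the exact sign-flip permutation test. Its unadjusted p of 0.03125 is the smallest this test allows, so it could not pass after adjustment. With the same block, bins higher in i3CBEc-3CBEdel than NCdel went from 3 to 0. Mean microhomology of i3CBEc (0.00121) and direct joins of i3CBEc-3CBEdel (-0.153) against NCdel turned sign. Within run 490 the share difference was -39.6, with 3 libraries a group.

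Inside the IgH window, shares differed from NCdel by -16.3 (i3CBEc) and -22.2 (i3CBEc-3CBEdel), both now past the threshold, and i3CBEc-3CBEdel minus i3CBEc turned to -5.94. Keeping the shared reads of Iadel library 4 gave Iadel-i3CBEc minus Iadel 0.169 (adjusted p = 0.0357, exact permutation test). That p was adjusted only over the comparisons that include Iadel, fewer than in the main test. At least 50 aligned bases gave -0.0207 for the same difference. Prey identity of at least 98% brought 3 differences of i3CBEc from NCdel past the threshold: orientation -16.2, median position -320 and long microhomology -1.06. The Sα block alone did so for i3CBEc-3CBEdel: orientation -17.3, long microhomology -1.89 and inserted bases 2.82. AGCT within 10 bases gave -5.39 there. Collapsing repeats turned inserted bases of i3CBEc to -0.135. Keeping the 99-base shift gave bait-end differences of -98.5 and -101, as constructed. Against inverted joins, at least 50 aligned bases gave direct 0.458 and long microhomology -5.66, and NCdel alone gave mean microhomology 0.0332.

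With NCdel libraries only (n = 6, smallest unadjusted p 0.03125), these calls were lost: differences from the μ unit were 3.69 (direct), -0.183 (mean microhomology) and -12.3 (inserted), and from outside -6.23 (direct), -0.608 (mean microhomology), -9.28 (long microhomology), 11.05 (inserted) and 10 (bait end). As percent of all junctions, 4 bins were lower in i3CBEc than NCdel, and 1 higher and 4 lower in i3CBEc-3CBEdel. A pseudocount of 1 and no filter each called 1 bin lower. The prey identity setting was not run against other joins. The causes were not tested.

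With libraries left out in turn, ranges for i3CBEc minus NCdel were -1.37 to 2.02 (direct), -0.0828 to 0.00263 (mean microhomology), -1.03 to 0.977 (inserted), -0.500 to 1.00 (bait end) and -3.20 to 1.12 (AGCT). For i3CBEc-3CBEdel minus i3CBEc they were -0.923 to 8.85 (share), -287 to 3.67 (median position), -1.20 to 0.238 (block) and -0.692 to 3.32 (direct), with 0 to 1 bins higher. For i3CBEc-3CBEdel minus NCdel they were 1 to 8 bins higher and 0 to 4 lower. Against inverted joins they were -1.93 to 0.217 (direct) and -5.69 to -2.95 (long microhomology), and against the μ unit 2.22 to 3.22 (direct, lost in 9 of 12).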
